A study of Caenorhabditis elegans with 6 samples.

Results

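Cuticle collagens and astacin proteases are the building material and some of the cutting tools of the nematode exoskeleton. Germline RNA-seq of wild-type and adr-2(-) Caenorhabditis elegans detected many of their genes, and the members described here are the genes whose symbol starts with col- or nas- and whose mean over the 6 libraries reached 5 normalized counts. There were 78 such members, 66 col- genes and 12 nas- genes, among 153 col- and nas- genes of an expression table of 18206 genes. The members were chosen by their mean normalized count in these libraries, so their detection is not a finding, and 75 col- and nas- genes lay below the minimum.

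The study asked how loss of ADR-2, the adenosine deaminase that edits double-stranded RNA in this worm, changes germline RNA. The wild type was strain N2 and the mutant was strain BB20, which carries the adr-2(ok735) deletion in every tissue rather than in the germline alone. Animals of both strains were grown at 20°C and dissected as synchronized young adults, and poly(A)-selected RNA of the collected germlines was sequenced. Each strain had 3 biological replicates, the germlines of several animals were collected together, and the extruded gonad can carry the somatic cells that surround it.

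Collagens of the cuticle are short chains with repeats of glycine followed by 2 further residues, and the epidermis secretes them anew for each larval stage and for the adult. They are encoded by one of the largest gene families of the worm, and different members are made at different times in the molting cycle. Astacins are secreted zinc metalloproteases: some open the old cuticle at ecdysis, others trim procollagens or act in digestion. Both families are made chiefly by somatic tissues.

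Reads assigned to genes numbered between 33658937 in adr-2(-) replicate 1 and 96397215 in wild-type replicate 2. One read was worth between 0.483 and 1.36 normalized counts, and a library with 0 reads of a gene allows up to 3 reads, which is 1.45 normalized counts in wild-type replicate 2 and 4.07 in adr-2(-) replicate 2 (counting error only). The strain labels held, since adr-2 itself stood at 3020, 2822 and 2852 normalized counts in the wild-type replicates and at 29.2, 61.0 and 35.6 in the adr-2(-) replicates. The limma log2 fold change of adr-2 was -6.15 (SE 0.23, adjusted p = 2.95e-06).

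The summed level of the members stood apart in a single library, mostly through the more abundant collagens. Summed over the 78 members, the wild-type replicates held 6644, 9010 and 8920 normalized counts, adr-2(-) replicate 1 held 51411, and adr-2(-) replicates 2 and 3 held 10582 and 7546. Replicate 1 of adr-2(-) was thus far above all 5 other libraries, while adr-2(-) replicate 2 was somewhat above and replicate 3 was within the wild-type range. Members took between 0.0140% and 0.0230% of all normalized counts in the 5 other libraries and 0.120% in adr-2(-) replicate 1.

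**Figure D1:**
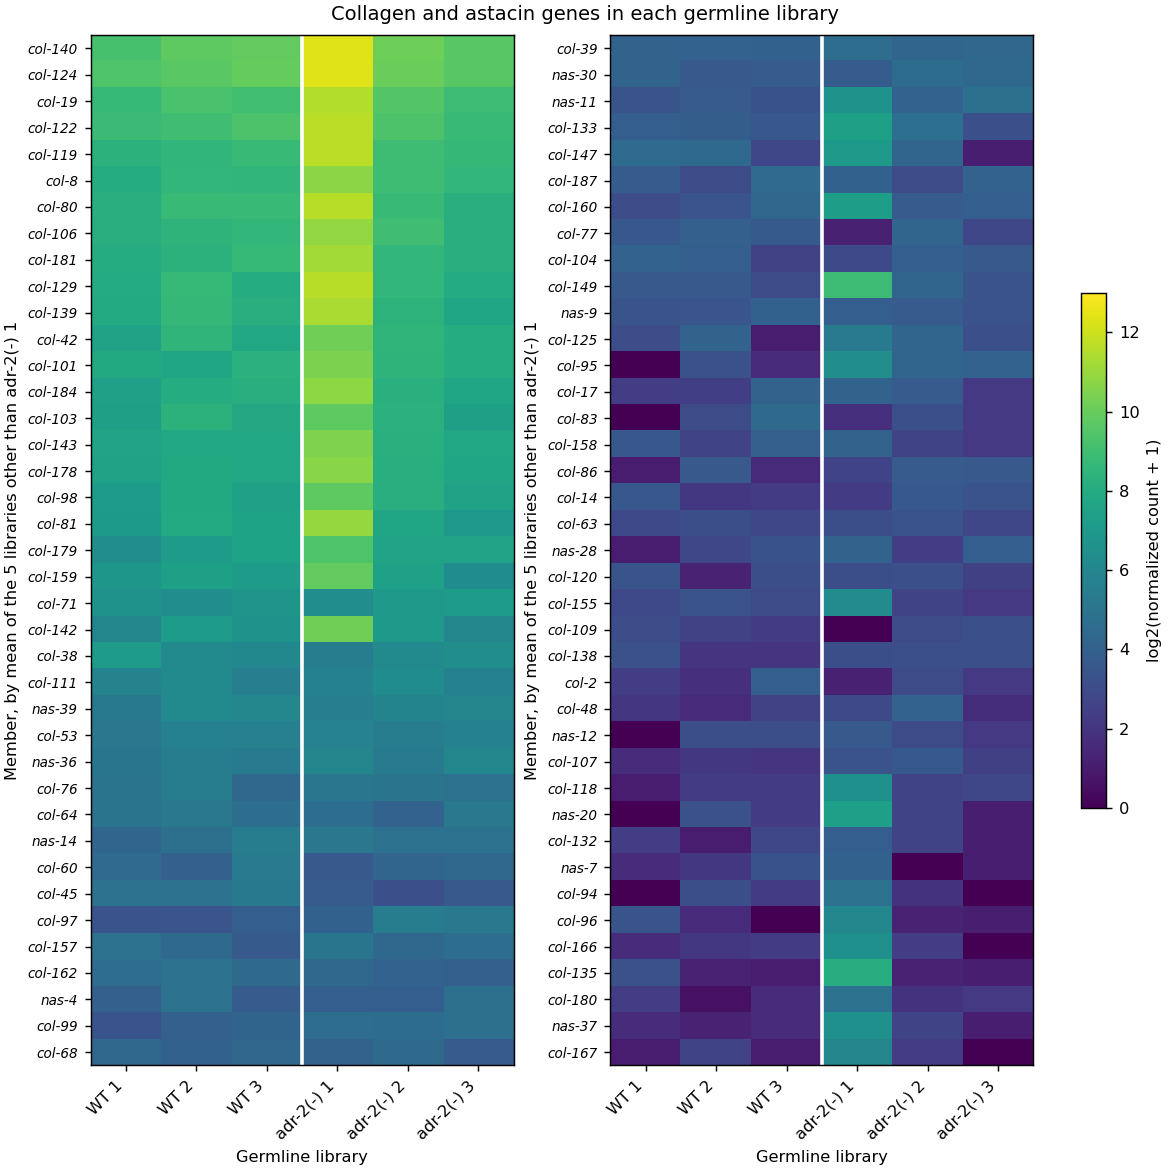
Level of each of the 78 members (rows) in the 6 germline libraries (columns), coloured by log2(normalized count + 1) and ordered by the mean of the 5 libraries other than adr-2(-) replicate 1. The column of adr-2(-) replicate 1 is brighter than the others in nearly all of the abundant collagens at the top left and in single members at the right, such as col-149, col-135 and nas-37. Of these, col-135 and nas-37 reached the minimum mean only through that library.

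Replicate 1 of adr-2(-) was the highest library for 48 of the 78 members, against 26.6% of all genes tested. In 29 members, 27 col- and 2 nas-, it exceeded the highest of the other 5 libraries by at least 4-fold, computed with 1 added to each normalized count. Of all 11159 genes tested, 231 (2.07%) did so. These counts are partly fixed by the choice of members, since 12 of the 78 passed the minimum only through adr-2(-) replicate 1. Among the 66 members with a mean of at least 5 over the other 5 libraries, 21 passed 4-fold, all of them col- genes, against 1.29% of the 10739 genes at that level. No member exceeded the other libraries by 4-fold in any other library, where the share of all genes was 0.0269% in wild-type replicate 2, 0.188% in wild-type replicate 3, 0.00896% in adr-2(-) replicate 3 and 0 in the remaining ones. In 19 further members adr-2(-) replicate 1 was the highest by less than 4-fold, in 24 it lay within the range of the other libraries, and in 6 (col-71, col-38, col-60, col-77, col-2 and col-109) it was the lowest.

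The abundant collagens carried most of this difference. The 22 members with a mean of at least 100 over the other 5 libraries were all col- genes and held between 87.0% and 92.3% of the summed level of the members in every library. In 21 of them adr-2(-) replicate 1 was the highest library, at 3.70 to 11.2 times the mean of the other 5, and the exception was col-71. Over all 22, that ratio had a median of 6.09, whereas the 6566 genes of this level had a median of 0.961. Of the 25 genes of this level that passed 4-fold, 14 were members.

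Per kilobase of exon, the highest wild-type levels were those of col-140, a mean of 866 normalized counts per kilobase, and col-124, a mean of 739. The next were col-122 at 571 per kilobase and col-19 at 563, a collagen gene widely used as a marker of the adult epidermis. col-140 lies at 5835855 to 5836834 on chromosome V and col-124 at 10216451 to 10217617 on chromosome IV. The wild-type libraries of neighbours in this order overlapped.

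In the wild-type replicates col-124 stood at 683, 805 and 988 normalized counts, and in the adr-2(-) replicates at 5360.0, 1036 and 798. Replicate 1 of adr-2(-) was the only high library, and replicates 2 and 3 fell on both sides of the highest wild-type library. The wild-type mean was 825 ± 154 (SD, n = 3) and the adr-2(-) mean 2398 ± 2568 (SD, n = 3), a log2 fold change of 1.01 (SE 0.57, limma adjusted p = 0.529). Without adr-2(-) replicate 1 the log2 fold change was 0.16 (SE 0.16, adjusted p = 0.809).

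For col-19 the wild-type replicates held 414, 619 and 543 normalized counts and the adr-2(-) replicates 2945, 728 and 478. Again only replicate 1 of adr-2(-) was far from the rest, and replicate 3 was inside the wild-type range. For col-140 the values were 603, 882 and 938 in wild type against 5219, 1122 and 792 in adr-2(-). The log2 fold changes were 0.96 for col-19 (SE 0.53, adjusted p = 0.522) and 1.07 for col-140 (SE 0.56, adjusted p = 0.4997), and both groups overlapped.

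A further 6 abundant collagens showed the same arrangement. The levels in adr-2(-) replicate 1 were 3211 normalized counts for col-122, 3248 for col-119, 3060.3 for col-80, 3073 for col-129, 2330.2 for col-181 and 1901 for col-106. The highest level of any other library was 654, 498, 452, 419, 424 and 510.0 in the same order. col-8, with 261, 390.2 and 372 normalized counts in wild type against 1683, 505 and 385 in adr-2(-), differed less, at 4.40 times the mean of the others in adr-2(-) replicate 1.

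col-71 was the abundant collagen that did not follow them. Its levels were 97.9, 84.0 and 105 normalized counts in wild type against 81.3, 129 and 144 in adr-2(-). Replicate 1 was the lowest of the 6 libraries, and replicates 2 and 3 were both above wild type.

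Among the other 5 libraries, the abundant collagens lay on the same side of their mean in single libraries. Set against the mean of the remaining libraries, with adr-2(-) replicate 1 left out, all 22 were above 1 in adr-2(-) replicate 2 (ratios of 1.18 to 1.62), and all 22 were below 1 in wild-type replicate 1 (0.479 to 0.848). In adr-2(-) replicate 2, 16 of the 22 lay above every wild-type library. In adr-2(-) replicate 3, 15 lay inside the wild-type range, 5 below it and 2 above it. Shares of all genes were not computed for these counts, so they are not read as a trait of the collagens.

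**Figure D2:**
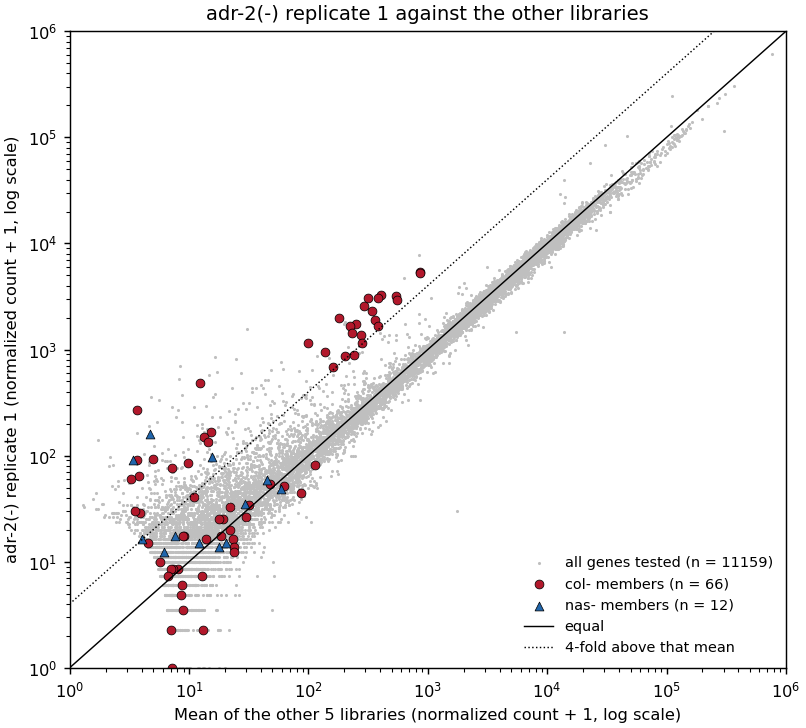
Normalized count + 1 in adr-2(-) replicate 1 (vertical, log scale) against the mean of the other 5 libraries (horizontal, log scale) for the 11159 genes tested in grey, the 66 col- members as circles and the 12 nas- members as triangles; the solid line marks equal levels and the dotted line 4-fold above that mean. Nearly all collagens above 100 lie near or over the dotted line, while those between 20 and 100, other than col-142, lie close to the solid line.

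The difference did not extend evenly over the scarcer members. The 14 members with a mean of 20 to 100 over the other 5 libraries had a median ratio of 0.891 in adr-2(-) replicate 1, and col-142 was the only one above 4-fold. At 5 to 20 normalized counts the 30 members had a median ratio of 1.25, ranging from 0 for col-109 to 42.2 for col-149. The 12 members under 5 had a median of 23.03, but these passed the minimum only through adr-2(-) replicate 1, so a high ratio was built into their choice.

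The largest single ratio was that of col-135, with 8.42, 1.45 and 0.968 normalized counts in wild type against 269, 1.36 and 1.15 in adr-2(-). These were 8, 3 and 1 reads in wild type against 212, 1 and 1 reads. The gene was thus nearly silent in every library but adr-2(-) replicate 1. col-149 stood at 11.6, 11.6 and 6.77 normalized counts in wild type and at 479, 17.6 and 9.19 in adr-2(-). Other scarce collagens of this kind were col-166, with 90.2 in adr-2(-) replicate 1 and at most 4.07 elsewhere, col-96, with 63.5 and at most 9.47, and col-167, with 59.7 and at most 5.31. Except for col-149, all of these passed the minimum mean only through that library, so a high value there was built into their choice.

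The members passing 4-fold in adr-2(-) replicate 1 were spread unevenly over the genome. Among the 66 members that did not need that library to pass the minimum, they were 9 of 14 on chromosome V and 4 of 8 on X, against 5 of 19 on IV, 2 of 11 on II, 1 of 6 on III and 0 of 8 on I. This is a description of position, with no test. Shares of all genes on each chromosome were not computed, so the unevenness is not read as a trait of the members. Where 2 members lay within 5000 bases of each other, both could be high in that library, as for col-95 with col-96, col-142 with col-143 and col-159 with col-160. Of these, col-96 passed the minimum mean only through that library. For col-39 and col-80, 1181 bases apart on chromosome II, the ratios to the mean of the others were 1.43 and 8.03. Exons of col-159 and col-160 overlap on the same strand, so their reads can be hard to assign to one of them.

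Reads of an overlapping gene can also set a member's level. Exons of 28 members overlap another gene, and 11 members lie inside an intron of another gene. Of the 23 among those 66 that lay within the range of the others in adr-2(-) replicate 1, 6 overlap a gene with a mean above 100 normalized counts, against 2 of the 21 that passed 4-fold. An overlap of any length was counted, and shares of all genes were not computed. Among the 6 is col-99, whose exons share 108 bases with daf-1 on the opposite strand. Among the 2 is col-124, whose exons share 71 bases with qns-1 (mean 6383) on the opposite strand. The other is col-160, whose exons share 21 bases with col-159, itself a member and also high in that library. The library kit marks strand, but whether counting used it is not given in the sources used here, so reads of such pairs may not be separable.

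Among the astacins, nas-37 and nas-20 passed 4-fold in adr-2(-) replicate 1, but both passed the minimum mean only through that library, so a high value there was built into their choice. nas-37, a protease required for shedding the old cuticle at ecdysis, lies at 9944844 to 9949063 on chromosome X. It was found at 2.10, 1.45 and 1.94 normalized counts in wild type and at 90.2, 5.43 and 1.15 in adr-2(-). These were 2, 3 and 2 reads in wild type against 71, 4 and 1 reads in adr-2(-), so replicate 1 alone was high and replicate 3 was below all wild-type libraries. The limma log2 fold change was 1.94 (SE 1.28, adjusted p = 0.595) and the exact two-sided permutation test gave p = 0.4 (n = 3 per strain, where 0.1 is the smallest possible).

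nas-20 was found at 0, 8.21 and 3.87 normalized counts in wild type and at 160.0, 5.43 and 1.15 in adr-2(-). The 0 in wild-type replicate 1 allows up to 3.16 normalized counts. nas-11 stood at 9.47, 12.1 and 8.71 in wild type and at 96.5, 16.3 and 26.4 in adr-2(-). It was the only astacin whose strains did not overlap, with a log2 fold change of 1.71 (SE 0.66, limma adjusted p = 0.364) and of 0.99 without adr-2(-) replicate 1 (SE 0.61, adjusted p = 0.646).

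The astacins with the highest levels per kilobase lay within the range of the other libraries in adr-2(-) replicate 1. nas-36, which acts with nas-37 in molting, had 32.6, 44.9 and 41.6 normalized counts in wild type against 58.4, 38.0 and 60.9 in adr-2(-). nas-39, the worm relative of the tolloid and BMP-1 proteases, had 37.9, 70.0 and 64.8 in wild type against 46.98, 57.0 and 58.6 in adr-2(-). Both groups of values overlapped. nas-14, nas-4, nas-9 and nas-30 also lay within the range of the others, at ratios of adr-2(-) replicate 1 to the mean of the others between 0.725 and 1.25. nas-28, nas-12 and nas-7, at 16.5, 11.4 and 15.2 normalized counts in adr-2(-) replicate 1, were highest there by less than 4-fold. Summed over the 12 astacins, the levels were 144, 231 and 229 in wild type against 570.2, 210.2 and 249 in adr-2(-). Of the 12, nas-37, nas-20 and nas-7 passed the minimum mean only through adr-2(-) replicate 1, so the sum in that library is partly fixed by the choice.

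**Figure D3:**
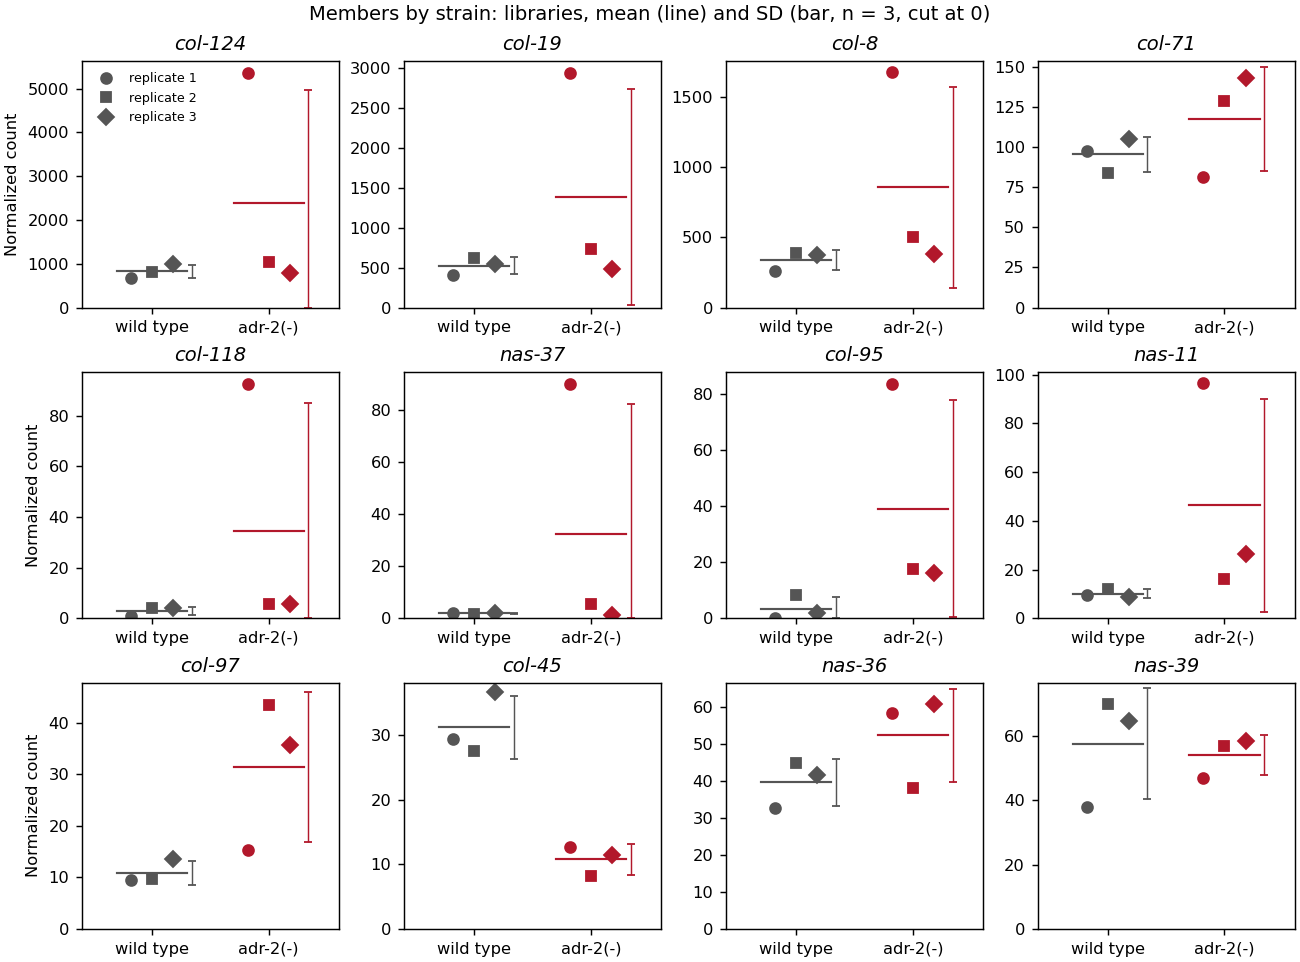
Normalized counts (vertical axes, starting at 0) of 12 members in each library by strain, with replicates 1, 2 and 3 as circle, square and diamond, the strain mean as a line and its SD as a bar (n = 3, cut at 0). Replicate 1 of adr-2(-) sits far above the other libraries for col-124, col-19, col-8, col-118, nas-37, col-95 and nas-11, is the lowest for col-71, and is the lowest of its strain for col-97, while all adr-2(-) libraries of col-45 lie below wild type.

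Limma and edgeR called no member between the strains. Limma, at an adjusted p of 0.05 or less together with a change of 0.5 or more on the log2 scale, up or down, called 0 of 78 members, and 29 of 11159 genes (0.26%). At an unadjusted p under 0.05 it had 6 members (col-8, col-179, nas-11, col-95, col-97 and col-45), against 11.6% of all genes tested. edgeR on the recovered reads called 0 members, and 0.17% of all genes. At an unadjusted p under 0.05 edgeR had 29 members, against 11.9% of all genes. Of the members, 62 had a log2 fold change above 0 in limma, with a median of 0.83, where all genes had a median of 0.01. These counts and the median include the 12 members that passed the minimum mean only through adr-2(-) replicate 1, so they are partly fixed by the choice. Without that library, edgeR had 2 of 66 members at an unadjusted p under 0.05, and 1006 of 10797 genes.

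This median depended on single libraries. Without adr-2(-) replicate 1, 66 of the members reached the minimum mean, 44 had a log2 fold change above 0 and the median was 0.17. Limma again called 0 of them, with 3 at an unadjusted p under 0.05 against 9.65% of all genes, and 37 genes in all (0.343%). Without adr-2(-) replicate 3 the median was 1.42 over the 77 members tested, 28 members had an unadjusted p under 0.05 against 8.18% of all genes, and limma called 0. For the 22 abundant collagens the median log2 fold change was 1.002 with all libraries, where all 22 were above 0, and 0.18 without adr-2(-) replicate 1, where 16 were. Their median standard error was 0.56 with the library and 0.23 without it.

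**Figure D4:**
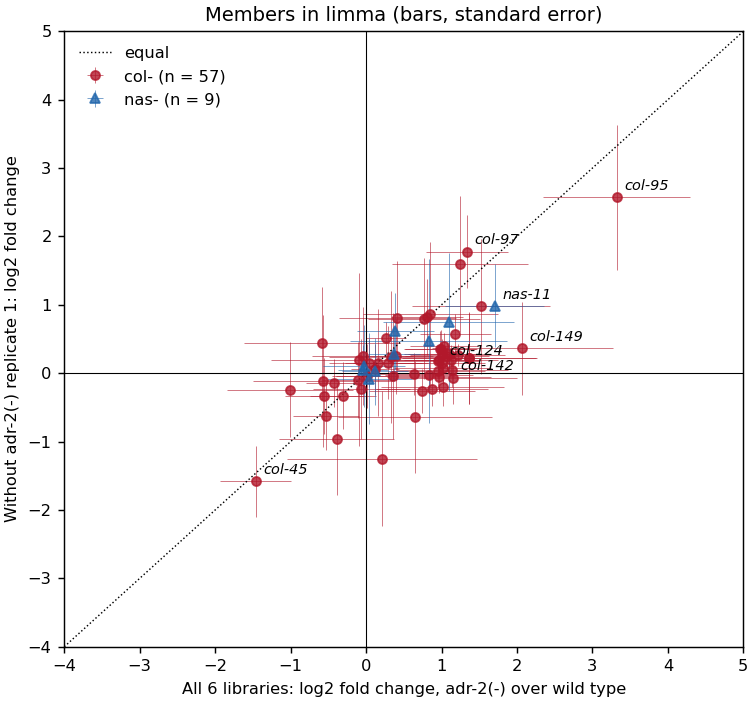
Limma log2 fold change of adr-2(-) over wild type without adr-2(-) replicate 1 (vertical) against that with all 6 libraries (horizontal) for the 57 col- members (circles) and 9 nas- members (triangles) tested in both; bars show the standard error and the dotted line marks equal values. The abundant collagens lie near 1 on the horizontal axis and near 0 on the vertical axis, as col-124 does, whereas col-95, col-97 and col-45 lie nearer to the dotted line.

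DESeq2 on the recovered reads called 3 of the 57 members to which it gave an adjusted p, col-118, col-95 and nas-37, against 1.31% of all genes. col-118, a collagen gene at 8848218 to 8849673 on chromosome IV, held 1.05, 3.86 and 3.87 normalized counts in wild type against 92.7, 5.43 and 5.75 in adr-2(-). That is 1, 8 and 4 reads against 73, 4 and 5 reads, so every adr-2(-) library was above every wild-type library, but replicates 2 and 3 by little. Like nas-37, col-118 passed the minimum mean only through adr-2(-) replicate 1, so a high value there was built into its choice. The DESeq2 log2 fold changes were 3.53 for col-118 (SE 1.08, adjusted p = 0.0385) and 4.16 for nas-37 (SE 1.22, adjusted p = 0.0278), and limma gave adjusted p = 0.489 and 0.595.

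Which members DESeq2 called depended on single libraries. Without adr-2(-) replicate 1 it called 0 members (0.881% of all genes), and gave col-118, nas-37 and col-95 no adjusted p, with log2 fold changes of 0.91, 0.84 and 2.22 and unadjusted p of 0.570, 0.675 and 0.0863. It also called 0 members without wild-type replicate 1 (1.08% of all genes) and without wild-type replicate 3 (0.853%), and 1, col-95, without wild-type replicate 2 (0.712%). Without adr-2(-) replicate 2 it called 7 (2.29% of all genes), and without adr-2(-) replicate 3 it called 3 (0.819%), col-133, col-98 and nas-37.

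A few members were separated by strain in all libraries. Every adr-2(-) library lay above every wild-type library for 8 members, against 9.3% of all genes tested, and below for 2, against 8.42%. The 8 were col-179, nas-11, col-95, col-97, col-99, col-118, col-39 and col-107, and the 2 were col-45 and col-162. With adr-2(-) replicate 1 set aside, both other adr-2(-) libraries lay on the same side of all wild-type libraries for 14 members, against 26.6% of all genes. These counts were near or under their shares of all genes.

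col-95 and col-97 were the members among these in which adr-2(-) replicates 2 and 3 also stood well apart. col-95 held 0, 8.21 and 1.94 normalized counts in wild type, with 0, 17 and 2 reads, and 83.8, 17.6 and 16.1 in adr-2(-). Its log2 fold change was 3.32 (SE 0.98, limma adjusted p = 0.242), the smallest adjusted p of any member, and 2.57 without adr-2(-) replicate 1 (SE 1.06, adjusted p = 0.477). col-97 held 9.47, 9.66 and 13.5 in wild type against 15.2, 43.4 and 35.6 in adr-2(-), so that here replicate 1 was the lowest of its strain. Its log2 fold change was 1.34 (SE 0.54, adjusted p = 0.382), and 1.78 without that library (SE 0.53, adjusted p = 0.279).

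In the other direction, col-45 held 29.5, 27.5 and 36.8 normalized counts in wild type against 12.7, 8.14 and 11.5 in adr-2(-). All 3 mutant libraries were below all 3 wild-type libraries, and replicate 1 was not apart from the other mutant libraries. The log2 fold change was -1.46 (SE 0.47, limma adjusted p = 0.289), and -1.58 without adr-2(-) replicate 1. col-162 held 24.2, 28.5 and 21.3 in wild type against 19.05, 16.3 and 14.9 in adr-2(-), with a log2 fold change of -0.53 (SE 0.44, adjusted p = 0.680). The exact two-sided permutation test gave p = 0.1 for each of the 10 separated members, the smallest that 3 against 3 can give.

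col-99 is not a cuticle collagen and encodes a transmembrane collagen with a role in the nervous system. It held 9.47, 14.97 and 17.4 normalized counts in wild type against 24.1, 23.1 and 26.4 in adr-2(-), so the strains did not overlap, at a log2 fold change of 0.81 (SE 0.47, limma adjusted p = 0.548). Its level may include reads of daf-1, as given above.

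Most other lists of cuticle genes were not high in sum in adr-2(-) replicate 1, although single genes were. The dpy, rol, sqt, bli, lon and ram cuticle collagens, 19 of 21 listed genes in the table and 9 tested, summed to 408, 391 and 414 normalized counts in wild type and to 303, 353 and 237 in adr-2(-). Replicate 1 was at 0.842 of the mean of the others, and no gene of the list was 4-fold higher there. bli-6 came nearest, with 48.3 there and at most 25.3 elsewhere. Of the list, 8 genes were at 0 in some library, and limma called 0 of the 9 tested, with 2 at an unadjusted p under 0.05.

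dpy-10, which encodes a collagen of the annular furrows, was the highest of these. It held 161, 211 and 178 normalized counts in wild type against 102, 74.6 and 95.4 in adr-2(-). The strains did not overlap, and the log2 fold change was -1.01 (SE 0.22, limma adjusted p = 0.141). dpy-9, another furrow collagen, held 23.2, 14.5 and 16.4 in wild type against 8.89, 4.07 and 4.60 in adr-2(-), at a log2 fold change of -1.51 (SE 0.61, adjusted p = 0.378).

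The collagen processing genes, most of them for enzymes that fold, hydroxylate, crosslink or cut collagen, had 17 of 18 in the table. In sum they were at 0.814 of the mean of the others in adr-2(-) replicate 1. Limma called 0 of the 14 tested, with 2 at an unadjusted p under 0.05. Their sum rested on abundant housekeeping members such as pdi-3 and pdi-1, protein disulfide isomerases, and bli-4, a proprotein convertase. Scarce genes of the list went the other way, mlt-7 with 41.9 in adr-2(-) replicate 1 and at most 10.9 elsewhere and dpy-6 with 15.2 and at most 2.41. The astacins with other names, dpy-31, a procollagen C-proteinase, and toh-1, were both tested and not called. dpy-31 held 70.5, 55.5 and 91.0 normalized counts in wild type against 109, 59.7 and 48.3 in adr-2(-), and its strains overlapped. Cuticlins and zona pellucida proteins stood in sum at 1.21 times the mean of the others, and molting genes at 0.900. Of the molting sum of 4411 normalized counts in adr-2(-) replicate 1, 3462 were nhr-23. That library was the highest for 7 of the 23 molting genes. No gene of either list was called, and the only one 4-fold higher in adr-2(-) replicate 1 was dyf-7, at 3.81 normalized counts there and 0 elsewhere.

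Markers of other tissues differed in which of them were high in the same library. The body wall muscle markers summed to between 6816 and 10699 normalized counts in the other 5 libraries and to 27988 in adr-2(-) replicate 1, 3.33 times their mean. That library was the highest for 14 of the 15 markers, and myosin heavy chain unc-54 held 7747 there and at most 1057 elsewhere. The intestine markers summed to between 1609 and 2738 in the others and to 10789.8 there, 5.06 times their mean, and it was the highest for 12 of 17. Vitellogenin vit-6 held 4696 there and at most 860.2 elsewhere. Of the intestinal factors, elt-2 was at 7.62 normalized counts there and at 0 in wild-type replicates 1 and 2, whereas elt-7 was at 3.81 there and between 2.30 and 10.6 elsewhere. vit-4 was also not high, at 0.629 of the mean of the others.

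The epidermis is where cuticle collagens are made, and its marker list was not high in sum in adr-2(-) replicate 1, although single genes were. The 18 genes summed to between 10037 and 12259 in the others and to 10644 there, 0.969 times their mean, and that library was the highest for 4. Most of this sum was lin-26 and nhr-23, at 5883 and 3462 normalized counts in adr-2(-) replicate 1. elt-1, egl-18 and ajm-1, at means of 118.4, 704 and 399 over the 6 libraries, were at 0.810, 0.789 and 1.21 times the mean of the others. Other markers of the list were scarce: dpy-7 was at 0 in 5 libraries. For wrt-6 the level was 0 in all wild-type libraries and between 1.15 and 1.36 in adr-2(-). The levels of elt-3 were 0, 14.97 and 14.5 in wild type against 54.6, 18.99 and 19.5 in adr-2(-). Those of grd-10 were 10.5, 16.9 and 0 in wild type against 35.6, 6.78 and 6.90 in adr-2(-). Basement membrane genes were at 2.06 times the mean of the others, highest in adr-2(-) replicate 1 for 14 of 16. In sum, germline markers were at 0.866, gonadal sheath and spermatheca markers at 0.990, neuron markers at 0.896, pharynx markers at 0.966 and coelomocyte markers at 1.01. That library was the highest for 2 of 32, 8 of 11, 8 of 16, 2 of 10 and 0 of 4 of them, in the same order. After the germline list, these sums rested mostly on abundant genes: fln-1 and let-502, then snb-1, mlc-4 and cup-5. They thus say little about the scarcer markers.

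The part of cells other than the germline in the collagen and astacin levels was not tested. In RNA of a whole dissected tissue, fewer cells of a type and less RNA per cell cannot be told apart.

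**Figure D5:**
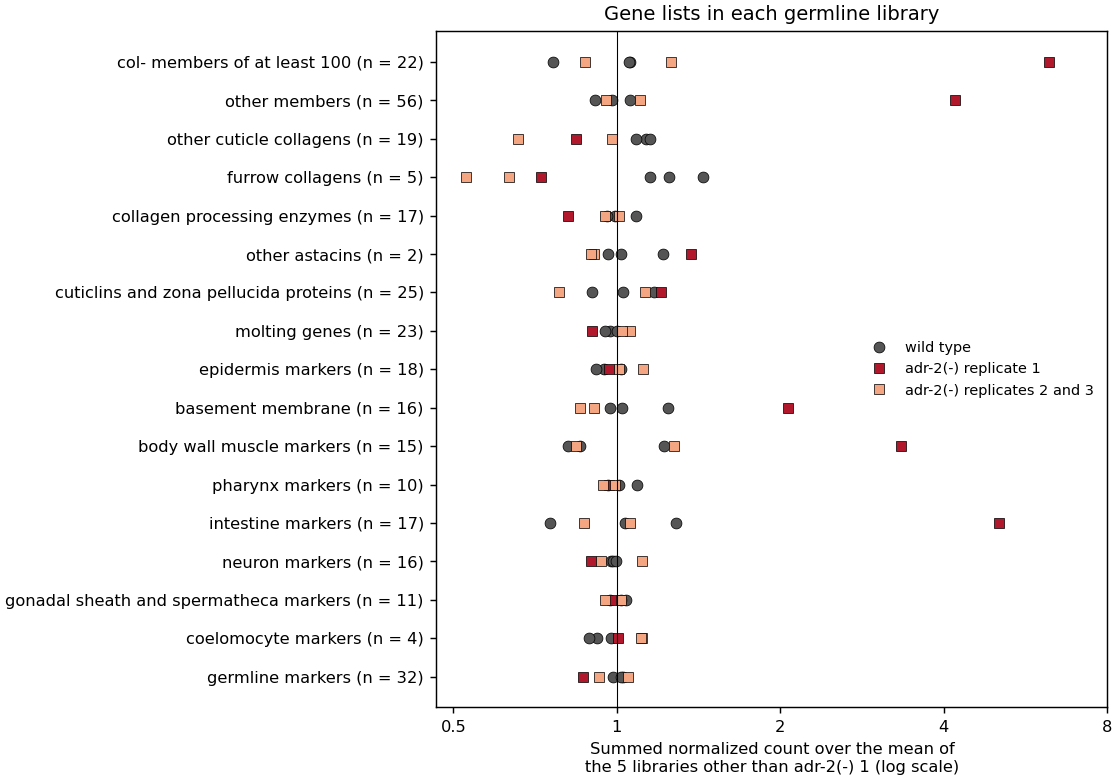
Summed normalized count of the 22 abundant col- members, the 56 other members and each gene list in every library, divided by the mean of the 5 libraries other than adr-2(-) replicate 1 (log scale; n, genes in the table); circles are wild type and squares adr-2(-). Replicate 1 of adr-2(-) lies far to the right for both sets of members, at 6.25 for the abundant collagens, and for the intestine (5.06) and muscle (3.33) markers, and near 1 for molting, epidermis, neuron and gonadal sheath genes. The 56 other members include the 12 that passed the minimum mean only through that library, so their position is partly fixed by the choice.

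Editing calls in the members were few, lay at low coverage and seldom recurred. The deposited calls of A-to-I editing name the positions of A-to-G mismatches, with their coverage and a confidence score. Each wild-type replicate has its own list, and the adr-2(-) germlines share 1 merged list. Of 91169, 183393 and 101207 listed positions in wild-type replicates 1, 2 and 3, members had 22, 80 and 38, at a median coverage of 28.5, 82 and 44 reads, where all positions had a median of 409, 755 and 429. Of the 300 listings in members, 294 lay inside the annotated member. A single edited read supported 18, 61 and 30 of them. The merged adr-2(-) list of 198578 positions held 160 in members (median coverage 222.5), of which 130 had a single read counted as edited. The paper treats adr-2(-) animals as free of A-to-I editing and discarded wild-type sites also called in them as false positives.

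At a confidence of at least 0.75 the wild-type lists held 13, 19 and 18 positions, 50 different positions in 25 members, and the adr-2(-) list held 9. No position reached this confidence in more than 1 wild-type replicate, and at any confidence 1 position of 139, in col-140, was listed in 2 replicates and 0 in all 3. The shares of all listed positions that reach the confidence or recur were not computed, so this is not read as a trait of the members. The adr-2(-) list also held 3 of the 139, in col-106, col-124 and col-159. The position with the highest confidence was in the coding sequence of col-139 in wild-type replicate 1, with 4 edited reads of 19 (21.1%). col-124 and col-140 had the most listings at any confidence in the wild-type lists, 18 and 17. At these coverages a low share of edited reads would often go unseen, and no count could be set against single adr-2(-) replicates.

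The minimum mean decided which genes are described. Just inside it were nas-7, at a mean of 5.10, col-109 at 5.15 and col-132 at 5.25. Just outside were nas-38 at 4.72, col-175 at 4.57 and col-141 at 4.45, of which col-141 held 22.9 normalized counts in adr-2(-) replicate 1, 3.87 in wild-type replicate 3 and 0 in the others. Without adr-2(-) replicate 1, 12 of the 78 members would fall below the minimum.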

How the data were processed

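The authors aligned the reads with STAR 2.7.10b and called editing with SAILOR, and the deposited expression signal is a gene count divided by 1 factor per library (a normalized count). How reads were counted per gene is not given in the sources used here. Whole reads were recovered for 100% of the values, at a tolerance of 0.01. The deposited coverage of an editing position is its read depth, with its fraction of edited reads, and the deposited calls carry a confidence score from 0 to 1. Columns of the authors' own DESeq2 comparison (mean, log2 fold change, its error, statistic and p-value) were not used.

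Limma 3.58.1 in R 4.3.3 was run on log2(normalized count + 1), with a trend of variance on mean, for 11159 genes with a mean of at least 5, with Benjamini-Hochberg adjustment over all of them, so log2 fold changes of low genes are understated. The design set this test for normalized values. edgeR 4.0.16 (quasi-likelihood) and DESeq2 1.42.0 were run on recovered reads. The fits were tested on simulated data. Replicate pairs of a strain differed beyond sampling noise. Gene names, positions and exon lengths came from the Ensembl annotation of WBcel235, with names for 17219 of 18206 genes. Python 3.11.15 was used. Groups came from the sample labels, and p-values measure the spread among 3 replicates per strain.

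The named members were col-118 and nas-37, every astacin, the 10 highest in wild type, the 10 largest increases and 5 largest decreases of the mean, and those whose strains did not overlap. Others were chosen after their values were seen. The members and lists were chosen with earlier results of these data known. Alternatives were other pseudocounts, minimums, normalizations and tools, the replicate number as a block, and the omission of each library in turn. Protein and promoter sequences were not analysed here.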

Additional observations from a re-analysis of the deposited data

How the results depend on the processing

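No member was called by limma under any pseudocount, minimum, normalization or left-out library tried, or by edgeR. DESeq2 called 3 members, and between 0 and 7 when 1 library was left out, an alternative added after the data were seen. The number of genes called was 29, against 127 with DESeq2 and 19 with edgeR. Leaving out 1 library, limma called between 8 and 64 genes. DESeq2 called 93, 62 and 76 without wild-type replicates 1, 2 and 3 and 77, 211 and 87 without adr-2(-) replicates 1, 2 and 3, and edgeR called 34 without adr-2(-) replicate 1. The causes were not tested. With the replicate number as a block limma called 28 genes and 0 members, and same-numbered libraries correlated at 0.0085, -0.21 and 0.32, so the numbers were not taken to pair the samples. A log2 fold change of 1 as the minimum left 20 genes. The rule chose between 67 and 81 genes when 1 library was left out, and 60 at a minimum mean of 10. Editing positions in members numbered 50 at the confidence and 139 at any confidence in wild type, by construction of the filter.

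Of the 41 named members, 40 kept the direction of their log2 fold change with a pseudocount of 0.5, and col-83 turned to 0.13. With DESeq2 and edgeR, nas-7 turned to 0.21 and 0.20. Leaving out 1 library at a time, the log2 fold change ranged from -0.033 to 1.42 for col-122, from -0.052 to 1.63 for col-80, from -1.33 to 0.19 for col-83, from -0.21 to 1.35 for nas-12, from -0.17 to 0.43 for nas-14, from -0.32 to 0.12 for nas-39, from -0.33 to 0.31 for nas-4, from -0.997 to 0.21 for nas-7 and from -0.079 to 0.26 for nas-9. None of these was called by limma. Few reads limit the scarce members, many of which rest on under 10 reads in most libraries.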
